A study of Homo sapiens with 4 samples.

Results

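Chromosome 6 genes were followed as 2 neighbouring stretches of the chromosome, a raised segment and an unshifted segment, in control and cadmium-resistant MDA-MB-231 cells. A member was a chromosome 6 gene with a mean raw count of 100 or more over the 4 libraries. Genes whose symbols start with HLA-, TAP, HSPA1, FOX, H1-, H2AC, H2BC, H3C or H4C were left out, which removed 31 of 666 genes. Of the 635 members, 371 started below position 73600000 of hg38 and formed the raised segment, and 264 started past it and formed the unshifted segment. The chromosome had 3125 genes in the table, the whole table had 61541, and 12930 genes over all chromosomes passed the count minimum. The position of the split was chosen from the cadmium against control ratios of these same libraries. The levels of the segments in that comparison are therefore a description, and no test between the segments was made.

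MDA-MB-231 is an established human breast cancer line that lacks the estrogen, progesterone and HER2 receptors used to class breast tumours. RNA sequencing was performed on 2 libraries of cells labelled with no treatment (control) and 2 libraries of cells labelled with cadmium at 10 µM, which per the study's methods had been passaged in cadmium for a long period until resistant. Both groups are the same line, and the labels name no further genetic change. The labels call the control samples biological replicates, but the sources do not say whether the resistant libraries came from separately adapted cultures, so spreads and p-values over n = 2 per group measure only the spread between these libraries, which may be technical. The control libraries are named control 2 and control 3, after their columns, and the others cadmium 1 and cadmium 2.

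The short arm of chromosome 6 holds the major histocompatibility complex (MHC), one of the most gene-dense stretches of the human genome, with its immune, complement and general housekeeping genes, beside large clusters of histone, zinc finger and tRNA genes. The long arm is poorer in genes and carries growth factor signalling, matrix and adhesion genes in wide neighbourhoods.

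Libraries held 51934729 to 61916007 counts. Control 2 stood apart, so segment medians, numbers of calls and the fold changes of called members are given with and without each control. Among members the ratio of control 3 to control 2 was more than 2-fold either way for 35 raised (9.43%) and 28 unshifted genes (10.6%), and the ratio of cadmium 2 to cadmium 1 for 0 of either. Over genes of other chromosomes these shares were 14.4% and 0.318%. The 5 genes used as high markers of the line (VIM, CD44, CAV1, AXL and EGFR) lay between 328 and 1730 CPM, counts scaled to a common library total, and ESR1 and PGR lay between 0.0385 and 0.53 CPM. Of the other low markers ERBB2 reached 116 CPM, EPCAM 41.1 CPM and CDH1 11.1 CPM. The blood cell markers PTPRC, CD3E and LYZ summed to 0.355 to 3.16 CPM per library with CD3E at 0 in all 4, those of endothelium to 3.21 to 15.6 CPM and those of fibroblasts to 9.12 to 17.2 CPM. The endothelial sum was lowest in control 2 through PECAM1, at 2.73 CPM there and 11.5 to 15.2 CPM in the others. VWF (0.42 CPM in control 2 and 0.404 in control 3) and CDH5 (0.0646 and 0.0385) were lowest in control 3. The part of these markers in the results was not tested.

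Promoter sequences are shown for some of the members nearest to the split and for some called members of each segment. Each is the 250 bases before the RefSeq gene start (GRCh38.p14), read 5′ to 3′ along the gene's strand. A gene as counted can begin further upstream than its RefSeq start. The windows of MAPK13 and EEF1A1 lie within the spans of these genes as counted, which are given below. Capitals mark a match, on either strand, to the core of the metal response element, TGCACNC or TGCGCNC, the element to which MTF-1 binds. The paper cites reports that MTF-1 bound consensus elements with excess zinc but not with cadmium. With its next base the COL12A1 match reads TGCACACG, which in the paper's view does not appear to be a true MTF-1 motif. EEF1A1 (chr6:73521033-73521282, minus strand) and SLC17A5 (chr6:73653993-73654242, minus strand) are the last raised members before the split. SLC17A5 runs across it, with its low-coordinate end, the 3′ end of the gene, before the split and the promoter past it. COL12A1 (chr6:75206054-75206303, minus strand) is the first unshifted one. MAPK13 (chr6:36130263-36130512, plus strand) and ADGRF1 (chr6:47042333-47042582, minus strand) are called raised members, and ENPP1 (chr6:131807770-131808019, plus strand) is a called unshifted one.
EEF1A1: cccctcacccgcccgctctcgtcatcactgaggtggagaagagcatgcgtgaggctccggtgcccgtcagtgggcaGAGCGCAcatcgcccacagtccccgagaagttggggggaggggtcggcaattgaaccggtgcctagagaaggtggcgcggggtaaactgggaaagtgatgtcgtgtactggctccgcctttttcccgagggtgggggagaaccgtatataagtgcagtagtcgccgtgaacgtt
SLC17A5: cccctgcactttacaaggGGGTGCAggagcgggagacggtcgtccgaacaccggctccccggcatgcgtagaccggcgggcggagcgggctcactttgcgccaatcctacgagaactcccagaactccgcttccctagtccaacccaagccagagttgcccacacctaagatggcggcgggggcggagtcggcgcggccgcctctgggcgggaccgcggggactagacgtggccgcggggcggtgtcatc
COL12A1: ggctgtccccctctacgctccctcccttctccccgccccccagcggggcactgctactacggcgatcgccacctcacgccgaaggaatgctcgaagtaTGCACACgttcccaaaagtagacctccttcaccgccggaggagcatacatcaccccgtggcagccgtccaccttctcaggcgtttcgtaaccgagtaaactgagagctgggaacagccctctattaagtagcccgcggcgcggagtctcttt
MAPK13: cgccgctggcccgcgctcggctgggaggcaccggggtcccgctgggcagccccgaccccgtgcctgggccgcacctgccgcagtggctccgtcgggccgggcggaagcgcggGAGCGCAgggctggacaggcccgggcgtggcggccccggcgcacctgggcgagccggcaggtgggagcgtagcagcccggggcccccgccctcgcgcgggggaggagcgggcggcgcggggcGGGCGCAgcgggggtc
ADGRF1: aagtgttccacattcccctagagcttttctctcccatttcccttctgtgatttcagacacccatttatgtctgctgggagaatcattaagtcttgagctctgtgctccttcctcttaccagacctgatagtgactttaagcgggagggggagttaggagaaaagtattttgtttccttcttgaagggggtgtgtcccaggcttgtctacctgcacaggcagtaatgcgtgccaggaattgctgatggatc
ENPP1: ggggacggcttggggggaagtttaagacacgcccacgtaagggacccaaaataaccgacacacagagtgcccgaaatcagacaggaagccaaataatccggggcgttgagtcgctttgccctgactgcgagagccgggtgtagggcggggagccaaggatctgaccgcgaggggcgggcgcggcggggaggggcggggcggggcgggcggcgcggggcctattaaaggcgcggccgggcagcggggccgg

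The EEF1A1, SLC17A5 and COL12A1 promoters each held 1 match and the MAPK13 promoter held 2, whereas none was found in the ADGRF1 and ENPP1 windows. Of the promoters examined but not printed, that of MYO6 held 1 match. No match was found in those of CPNE5, LINC03040, MOXD1, COX7A2 and SENP6.  A promoter was matched for 300 raised and 227 unshifted members. TGCGCNC was found in 31.0% of raised and 28.2% of unshifted promoters, against 16.9% of all 27305 RefSeq promoters. All RefSeq promoters include those of genes under the count minimum, and shares over genes that passed it were not computed. A difference from all promoters can therefore not be read as a property of chromosome 6. TGCACNC was found in 9.33% and 11.5%, against 9.73% of all. The AP-1 motif TGANTCA was present in 4.67% of raised and 6.61% of unshifted promoters, against 6.6% of all, and the forkhead motif TGTTTAC in 3.0% and 1.32%, against 2.98%. Motifs were searched on both strands and may overlap one another. A match is a description of the letters and not of a bound site.

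In both cadmium libraries most raised members had modestly higher levels than in either control, and those of unshifted members were spread around 0. Levels are log2 values of the normalized count plus 1, and each ratio was centred on its median over the 12930 genes, which moved it by 0.06 or less for the ratio of means and by 0.08 or less for any pair of libraries. The median log2 ratio of mean cadmium to mean control was 0.36 for the raised segment, a fold of 1.28, beside a within-group SD of 0.016 between libraries in the median level of these members. For the unshifted segment the median was 0.05, a fold of 1.04, beside an SD of 0.022, and for the 12264 genes of other chromosomes it was -0.01. In bulk RNA, fewer cells carrying a transcript and less of it per cell cannot be told apart.

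The offset of the raised segment was seen against either control. Its median log2 ratio was 0.33 for cadmium 1 over control 2, 0.34 for cadmium 1 over control 3, 0.37 for cadmium 2 over control 2 and 0.36 for cadmium 2 over control 3. The same pairings gave 0.03, 0.07, 0.00 and 0.05 in the unshifted segment. Over each whole segment the median ratio within a group was small. It was 0.04 and -0.03 for control 3 over control 2 and 0.00 and -0.02 for cadmium 2 over cadmium 1. In parts of each segment the controls lay further apart, as given below. The raised median exceeded the unshifted one by 0.31 overall and by 0.28 to 0.37 over the 4 pairings, against 0.07 for control 3 over control 2 and 0.02 for cadmium 2 over cadmium 1. The 4 pairings share libraries and are not independent of one another.

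When each gene was set against its own mean over the 4 libraries, the raised segment had median log2 levels of -0.17 in each control, 0.16 in cadmium 1 and 0.20 in cadmium 2. The control and cadmium medians did not overlap, while their interquartile bars lay next to each other, from -0.37 to 0.02 in control 2 and from 0.03 to 0.29 in cadmium 1. The unshifted medians were 0.01, -0.03, 0.04 and 0.02 in the same order.

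**Figure D1:**
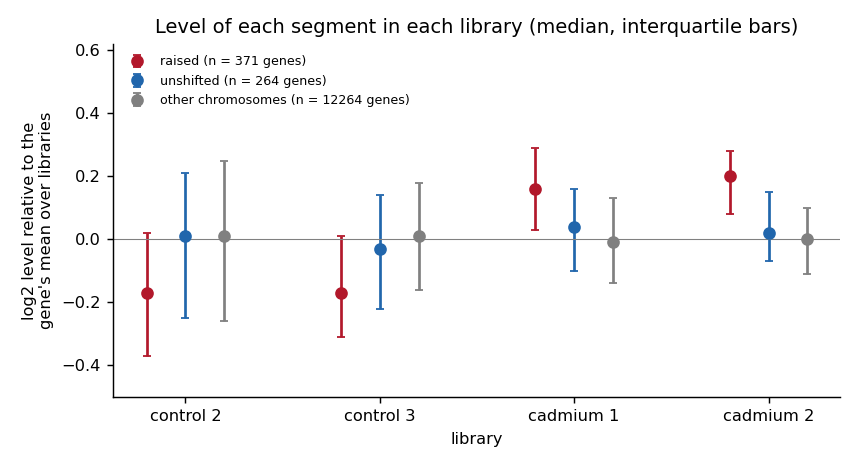
Median log2 level in each library (y axis, log2 relative to the gene's mean over libraries), with bars from the lower to the upper quartile of genes, for raised members (red), unshifted members (blue) and genes of other chromosomes (grey). Raised medians are -0.17 in both controls and 0.16 and 0.20 in the cadmium libraries, while unshifted medians lie between -0.03 and 0.04.

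Raised members took 3.88% and 3.79% of all counts in control 2 and control 3, and 5.06% and 5.02% in cadmium 1 and cadmium 2. A smaller part of this share came from EEF1A1, which encodes the elongation factor that brings aminoacyl-tRNA to the ribosome. Without it the shares were 3.13% and 3.10% in the controls and 3.99% and 4.04% in the cadmium libraries. Unshifted members took 1.23% and 1.19% in the controls and 1.34% and 1.30% in the cadmium libraries.

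Most raised genes contributed to the offset. The log2 ratio was above 0 for 314 of 371 raised members (84.6%), against 151 of 264 unshifted members (57.2%) and 48.7% of genes of other chromosomes. The middle of the distribution was as narrow in the raised segment as in the unshifted one, with interquartile ranges of 0.38 and 0.37, and the raised quartiles lay at 0.15 and 0.53 against -0.13 and 0.24. A fold of more than 1.5 was reached by 70 raised members (18.9%) and 14 unshifted members (5.3%). Both cadmium libraries lay above both controls for 213 raised members (57.4%) and below them for 22 (5.93%), with 136 overlapping. In the unshifted segment 47 were above (17.8%), 52 below (19.7%) and 165 overlapping. Over all 12930 genes the shares were 17.7% above and 23.7% below. Because the split was placed on this contrast, the raised share is not evidence about the segment.

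**Figure D2:**
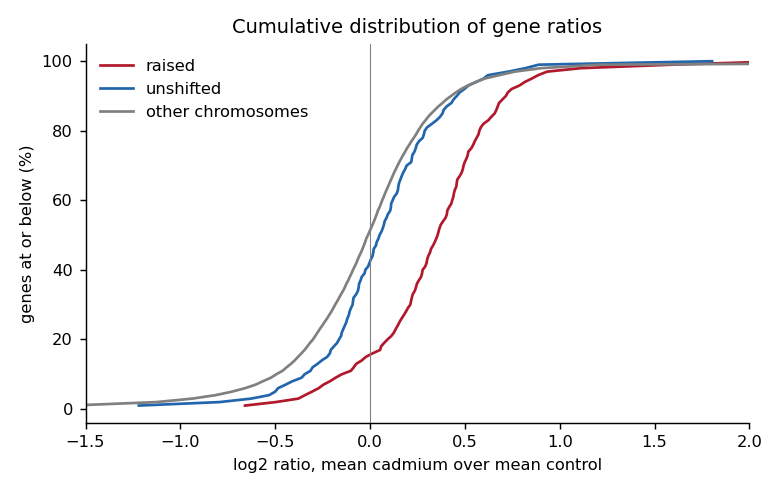
Percentage of genes (y axis) at or below each centred log2 ratio of mean cadmium to mean control (x axis) for raised members (red), unshifted members (blue) and genes of other chromosomes (grey), drawn between -1.5 and 2.0. The raised curve lies to the right along its middle, with a median of 0.36 against 0.05 and -0.01.

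Along the chromosome the offset was not even. Members were grouped in windows of 25, counted outward from the split. The 15 raised windows had median log2 ratios from 0.15 to 0.50, and in 14 of them every pairing exceeded 0.1. The 11 unshifted windows ran from -0.06 to 0.16 and in 0 of them did every pairing exceed 0.1. The outermost unshifted window, 14 members from RPS6KA2 to PDCD2, depended on the control. Its pairings were 0.47 and 0.53 over control 3 but -0.18 and -0.12 over control 2. The name unshifted therefore describes this tip of the long arm less well. Among 482 windows on other chromosomes the medians ran from -0.80 to 0.46, every pairing exceeded 0.1 in 10 (2.07%), and the median reached 0.3 in 11 (2.28%), against 12 of the raised windows. Windows with such a median therefore also occurred on other chromosomes. The controls were less alike in single windows than over a whole segment. Window medians of control 3 over control 2 ran from -0.24 to 0.34 in the raised and from -0.69 to 0.19 in the unshifted segment.

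The smallest raised values lay at the tip of the short arm. The outermost window, 21 members from DUSP22 to ECI2 (starts 291630 to 4115693), had a median of 0.16, with pairings between 0.05 and 0.16, and the next one, from CDYL to SYCP2L, had 0.15. These medians were no higher than that of the unshifted window from NT5E to GPR63, at 0.16, so the name raised describes the tip of the arm less well than the rest. The highest window median, 0.50, was that from BTN2A3P to ZNF311 (starts 26421391 to 28994785), a stretch rich in butyrophilin and zinc finger genes. There, 18 of 25 members had both cadmium libraries above both controls, against 57.4% of all raised members and 17.7% of all genes. The offset continued over the centromere. The 352 short arm members had a median of 0.35, and the 19 long arm members below the split, with starts from 63211446 to 73593379, had a median of 0.45. In those 19 genes the pairings gave 0.37 to 0.41, beside -0.15 for control 3 over control 2.

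**Figure D3:**
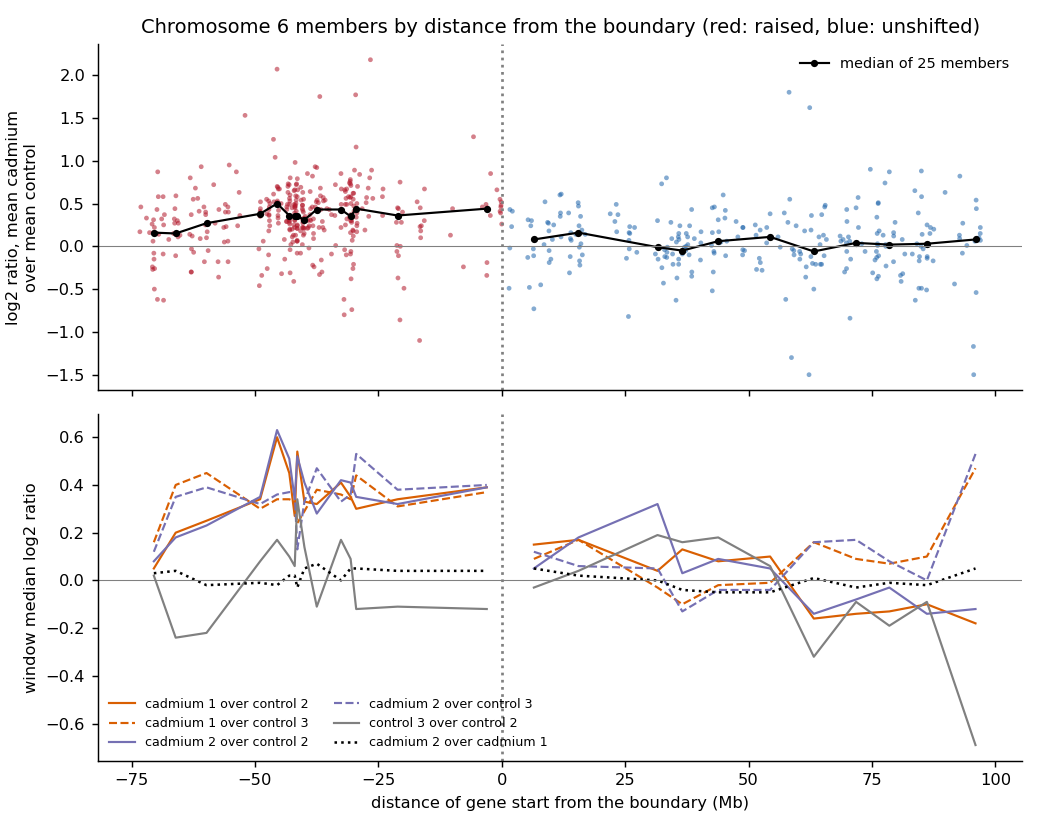
Upper panel, the centred log2 ratio of mean cadmium to mean control (y axis) of each member against the distance of its start from the split (x axis, Mb; raised in red, unshifted in blue, values below -1.5 drawn at -1.5) with the median of each window of 25 members in black. Lower panel, window medians for the 4 pairings and for the ratios within a group. In the upper panel raised window medians lie between 0.15 and 0.50 and unshifted ones between -0.06 and 0.16.

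Values near the split were mixed on the unshifted side and depended on single controls on both sides. The last 10 raised members had a median log2 ratio of 0.47 with all 10 above 0, and the first 10 unshifted members had a median of 0.23 with 6 above 0. Over 25 members on each side the medians were 0.44 and 0.08. The last 5 raised members were RPL39P3 (0.39), CGAS (0.46), MTO1 (0.48), EEF1A1 (0.52) and SLC17A5 (0.26), and the first 5 unshifted members were COL12A1 (-0.49), COX7A2 (-0.02), TMEM30A (0.43), SENP6 (0.23) and MYO6 (0.41). In DESeq2 log2 fold changes, RPL39P3 was at 0.33 with all libraries, -0.06 without control 2 and 0.86 without control 3. CGAS was at 0.40, 0.72 and 0.12 in that order, whereas MTO1 (0.42, 0.44 and 0.39) and EEF1A1 (0.46, 0.55 and 0.36) moved less. Past the split, MYO6 was at 0.35, 0.80 and -0.01 and SENP6 at 0.17, 0.43 and -0.06, while TMEM30A was at 0.37, 0.41 and 0.31. COX7A2 was at -0.08, 0.21 and -0.33. The place where the offset ended was not resolved to single genes.

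EEF1A1 (73489308 to 73525587, minus strand) had normalized counts of 436163 and 384614 in control 2 and control 3 and of 582702 and 545552 in cadmium 1 and cadmium 2, so both cadmium libraries were above both controls. The fold of means was 1.37, and the DESeq2 log2 fold change of 0.46 (SE 0.25) did not pass the threshold of 0.1 (adjusted p = 0.757). EEF1A1 has many processed copies elsewhere in the genome and shares bases with MTO1, which encodes a mitochondrial tRNA modification enzyme, and its count is uncertain to that extent. CGAS, the cytosolic DNA sensor that makes the messenger cGAMP, had normalized counts of 3259, 2170, 3764 and 3396 in that library order (adjusted p = 0.978 with DESeq2). SLC17A5, the lysosomal sialic acid exporter and the member closest to the split, had 2561, 3273, 3361 and 3363. Its log2 ratio was 0.47 and 0.45 over control 2 but 0.06 and 0.04 over control 3, so the value of this member rested on control 2. RPL39P3 is a pseudogene of a ribosomal protein gene, and its reads may belong to other copies.

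COL12A1, which encodes the collagen XII chain and is the first unshifted member, was far apart between the controls, with 13511 normalized counts in control 2 against 3053 in control 3, and had 5113 and 6252 in the cadmium libraries. Both cadmium libraries fell between the controls. The log2 fold change was -0.54 with all libraries, -1.26 without control 3 and 0.89 without control 2, so its direction depended on which control was used. TMEM30A, a subunit of phospholipid flippases, had 9624, 9053, 11572 and 12525, with both cadmium libraries above both controls. MYO6, an unconventional myosin of endocytosis, had 7226, 4156, 7584 and 6898, and here the groups overlapped.

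At the count minimum, the raised members just above it were PPP1R3G (mean raw count 101, log2 ratio -0.63) and SYCP2L (106.5 and 0.12), and the genes just below it were KCNK5 and SCIRT, both with a mean of 99.75. SCIRT had raw counts of 83, 85, 121 and 110, while KCNK5 had 395 in control 2 and 0, 4 and 0 in the others. In the unshifted segment STX11 (100.5 and -0.84) and DDO (103.75 and -0.07) lay just above the minimum, and SAMD5 (97.0) and TRAF3IP2-AS1 (99.25) just below it. Under the minimum but with a read in some library were 600 genes on the raised side and 464 on the unshifted side.

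DESeq2 was fitted on the whole table to ask which single members changed, with genes called at an adjusted p-value below 0.1. In the raised segment 5 members were called higher in cadmium-resistant cells (1.35%) and 0 lower. In the unshifted segment 1 was called higher and 1 lower (0.379% each). Among all genes at or over the count minimum 0.565% were called higher and 0.727% lower, and among all genes tested 0.601% and 0.535%. With edgeR's quasi-likelihood test 0 genes passed this threshold anywhere in the table. Its smallest adjusted p was 0.494. Its unadjusted p was below 0.05 for 75 of 371 raised and 15 of 264 unshifted members, against 1506 of 19241 genes in all. The split was placed on this contrast, so these counts are no test of the segments. All 7 members called by DESeq2 kept the direction of their fold change when any 1 library was left out. In all 7 the groups did not overlap, so this outcome was fixed in advance. The number called higher in the raised segment changed widely when 1 library was left out, and so did the number over all genes. With a single library left in a group, that library is assumed to vary like the other group. The numbers called in such fits are therefore no sign that members hold against either control.

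Of the called raised members, ZNF165 and ADGRF1 had the largest folds. ZNF165 (28080568 to 28089563, plus strand) encodes a zinc finger protein known as a cancer-testis antigen. It had normalized counts of 71.9 and 72.3 in the controls and of 338 and 251 in the cadmium libraries. The controls lay together and both cadmium libraries were well above them, and ZNF165 rose 4.09-fold with a DESeq2 log2 fold change of 2.03 (SE 0.40, adjusted p = 2.15e-04), which was 2.03 without control 2 and 2.02 without control 3. ADGRF1 (46997708 to 47042350, minus strand), an adhesion G protein-coupled receptor, had 406, 1795, 5232 and 4375. The groups did not overlap, but the controls were far from each other. ADGRF1 rose by a DESeq2 log2 fold change of 2.13 (SE 0.58, adjusted p = 0.036), which was 1.42 without control 2 and 3.55 without control 3.

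CPNE5, LINC03040 and MAPK13 were also higher in both cadmium libraries. CPNE5 (36740775 to 36839444, minus strand) encodes a copine, a calcium-dependent membrane-binding protein. It had normalized counts of 85.2 and 120 in the controls and 339 and 330 in the cadmium libraries, and rose 3.26-fold (DESeq2 adjusted p = 0.00264). The long noncoding RNA LINC03040 (44000580 to 44007612, plus strand) had 267 and 500 in the controls and 1341 and 1171 in the cadmium libraries, a 3.28-fold rise (DESeq2 adjusted p = 0.00264). It overlaps another gene of the table, and because strand was ignored reads of the pair cannot be told apart. MAPK13 (36127809 to 36144524, plus strand), the delta member of the p38 stress kinases, had 6016 and 6575 against 12213 and 10623, and rose 1.81-fold (DESeq2 adjusted p = 0.0729). Without control 2 and without control 3 the log2 fold changes were 1.48 and 1.96 for CPNE5, 1.33 and 2.22 for LINC03040 and 0.79 and 0.91 for MAPK13. MAPK13 was the most abundant of the called raised members per kb of exon, at 1259 normalized counts per kb against 238 for ADGRF1.

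The called unshifted members lay in neighbouring positions of the long arm and moved in opposite directions. ENPP1 (131808016 to 131895155, plus strand) encodes a membrane enzyme that cleaves extracellular nucleotides, cGAMP among them. It had normalized counts of 8176 and 6694 in the controls and of 28958 and 20883 in the cadmium libraries, and rose 3.35-fold with a DESeq2 log2 fold change of 1.74 (SE 0.30, adjusted p = 5.44e-06), the lowest adjusted p of any member. MOXD1 (132296055 to 132401475, minus strand), a copper-dependent monooxygenase of the dopamine beta-hydroxylase family, had 470, 609, 177 and 244, and fell with a DESeq2 log2 fold change of -1.36 (SE 0.36, adjusted p = 0.0284). The groups did not overlap in either gene. Without control 2 and without control 3 the log2 fold changes were 1.90 and 1.60 for ENPP1 and -1.54 and -1.17 for MOXD1. Of the 7 called members, ZNF165, CPNE5, LINC03040 and ENPP1 overlap other genes of the table, and MAPK13, ADGRF1 and MOXD1 do not.

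**Figure D4:**
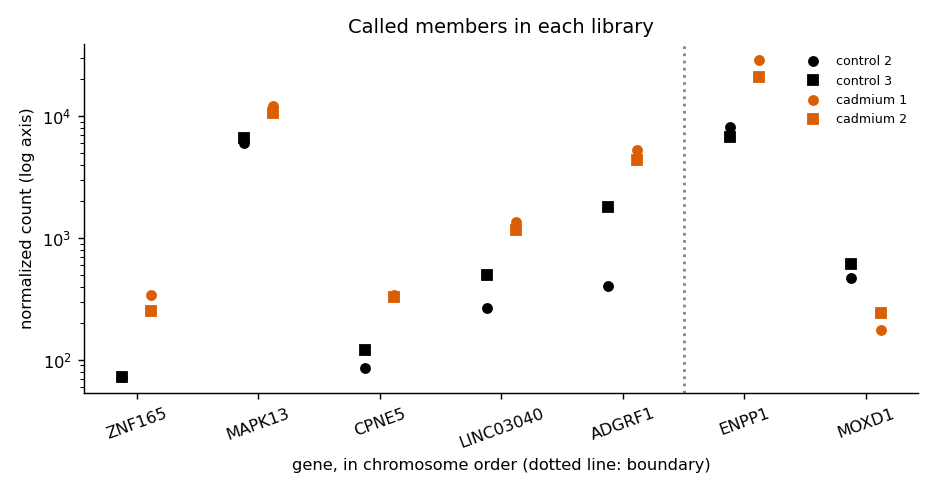
Normalized counts (y axis, log scale) of the 7 called members in control 2 and control 3 (black) and cadmium 1 and cadmium 2 (orange), in chromosome order, with the dotted line at the split. In 6 genes both cadmium libraries lie above both controls, and in MOXD1 they lie below; the ADGRF1 controls are 406 and 1795.

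Genes of a wide range of functions took part in the raised segment. Members were sorted by function into 8 lists, and no member of 5 of the raised lists passed the test. The lowest and highest member of a list, where named, were chosen after their values were seen. In the chromatin and transcription factor list, 38 raised members had a median log2 ratio of 0.50, and 1 was called higher (ZNF165). Both cadmium libraries were above both controls in 30 of them (78.9%), against 57.4% of all raised members and 17.7% of all genes. The segment was chosen on this contrast, so a raised list's share above that of all genes is no trait of its function. The 16 unshifted members of this list had a median of 0.01, and 1 was above. HMGA1, an architectural chromatin protein and the most abundant raised gene per kb of exon (85965 normalized counts per kb), had normalized counts of 133964 and 158802 in the controls and 254409 and 252991 in the cadmium libraries. Its groups were far apart, yet the DESeq2 log2 fold change of 0.79 (SE 0.25) missed the threshold (adjusted p = 0.121). BRD2, a reader of acetylated histones in the MHC, had 13913, 16868, 22619 and 20492. Among unshifted members of the list, HDAC2, a histone deacetylase, had 11019, 9436, 10114 and 10094, with overlapping groups, and CITED2, a transcriptional coregulator, had 14995, 8850, 13956 and 10320. BCLAF1, a nuclear protein of transcription and RNA processing, had 9746, 7195, 9119 and 9417, also with overlap.

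Genes of ribosomes and translation had a raised median of 0.43, and all 22 raised members of the list were above 0, from XPO5 (0.12) to GNL1 (0.72). Both cadmium libraries were above both controls in 17 of them (77.3%), and 0 of them were called. The share was 57.4% over all raised members, a segment chosen on this contrast, and 17.7% over all genes. RPS18, a protein of the small ribosomal subunit, had normalized counts of 56578 and 60226 in the controls and 65142 and 75225 in the cadmium libraries. RPL10A of the large subunit had 33724 and 30044 against 33502 and 34652, so its groups overlapped. The 10 unshifted members of the list had a median of -0.07 and none had both cadmium libraries above both controls. RPS12, also of the small subunit and the unshifted gene with the most counts per kb (34544), had 22495 and 24113 against 20156 and 21530, with both cadmium libraries below both controls. MRPL18 of the mitochondrial ribosome had 3050 and 2650 against 2524 and 2497, and RWDD1 had 3026 and 2895 against 2645 and 2818. Both were lower in each cadmium library than in each control, and neither passed the test. Ribosomal protein genes have many pseudogenes, and reads that mapped to more than 1 place were dropped.

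The class III and extended MHC genes lie between and beside the antigen-presenting genes that were left out. They gave 51 raised members with a median of 0.35, and 0 of them were called. Both cadmium libraries were above both controls in 34 (66.7%), against 57.4% of all raised members and 17.7% of all genes. CLIC1, a chloride channel protein, had normalized counts of 38023 and 39800 in the controls and 48584 and 53784 in the cadmium libraries. BAG6, a chaperone for newly made membrane proteins, had 31797 and 24971 against 35099 and 36553. In CLIC1 and BAG6 both cadmium libraries were above both controls. PRRC2A, a large RNA-binding protein, had 52527 and 47788 against 54440 and 57458. Its cadmium libraries were likewise both above both controls. The highest of the list was MSH5, a meiotic mismatch repair homologue, with a log2 ratio of 0.98 at low counts of 96.5 and 255 in the controls and 338 and 329 in the cadmium libraries.

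Cell cycle and repair genes had medians of 0.36 over 25 raised and 0.10 over 16 unshifted members. Both cadmium libraries were above both controls in 16 (64.0%) and 3 (18.8%) of them. These shares were 57.4% and 17.8% over all members of each segment and 17.7% over all genes. MCM3, a subunit of the replicative helicase, had normalized counts of 21944 and 18964 in the controls and 23051 and 24499 in the cadmium libraries, and DEK, a chromatin-binding oncoprotein, had 22233 and 18500 against 25133 and 26647. The lowest raised member of the list was CDKN1A, the p21 inhibitor of cyclin-dependent kinases, with a log2 ratio of -0.33 and normalized counts of 3651 and 6372 against 3463 and 4198. Unshifted TTK, a kinase of the spindle checkpoint, had 4317 and 3308 against 3365 and 3823. CDKN1A and TTK had overlapping groups. KIFC1, a kinesin of the mitotic spindle, had 10858 and 10546 against 11412 and 12457, and unshifted PHIP, a bromodomain protein, had 3242 and 3593 against 3757 and 4384. In both, the cadmium libraries were above the controls, and neither passed the test.

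Glutathione, redox and metal genes were of interest because cadmium binds thiols. Their list was broad and also held genes of other functions, among them SLC29A1, ACAT2 and MTHFD1L. The raised median of the list was 0.24 over 18 members, with 10 above both controls (55.6%). That share was close to the 57.4% of all raised members, against 17.7% of all genes. The unshifted median was -0.12 over 11 members, with 1 above. None was called. GLO1, which detoxifies methylglyoxal with glutathione, had 17653 and 14145 against 19241 and 21859. SLC39A7, a zinc transporter of the endoplasmic reticulum and Golgi, had 13021 and 15047 against 15145 and 16266. In GLO1 and SLC39A7 both cadmium libraries were above both controls. SLC29A1, a nucleoside transporter, had 12259 and 9806 against 11040 and 12754, with overlapping groups. Of the unshifted members, ACAT2, an enzyme of acetoacetyl-CoA synthesis, had 6898 and 2290 against 5013 and 5468, and MTHFD1L, a mitochondrial folate enzyme, had 4265 and 2838 against 3664 and 3780. The cadmium libraries lay between the controls in both. HEBP2, a heme-binding protein, had 3413 and 2935 against 2563 and 2696, both below the controls. The lowest of the list was GSTA4, a glutathione transferase for lipid aldehydes, with 763 and 305 against 283 and 282. Its log2 fold change was -0.92 with all libraries, -0.11 without control 2 and -1.44 without control 3.

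Growth signalling genes, the list with the most unshifted members, had a median of 0.41 over 13 raised and -0.10 over 26 unshifted members. Both cadmium libraries were above both controls in 7 (53.8%) and 3 (11.5%) of them. These shares were 57.4% and 17.8% over all members of each segment and 17.7% over all genes. MAPK13 was the only member of the list called. VEGFA, the vascular growth factor, had normalized counts of 10700 and 13288 in the controls and 23024 and 19543 in the cadmium libraries, and its DESeq2 log2 fold change of 0.83 (SE 0.27) missed the threshold (adjusted p = 0.154). TNFRSF21, a death receptor, had 8729 and 15300 against 22681 and 20155, and its log2 fold change of 0.83 was 0.48 without control 2 and 1.28 without control 3. SRPK1, a kinase of splicing factors, had 8820 and 8114 against 10414 and 11979. Unshifted CCN2, a matrix-associated growth regulator, had 40196 and 12747 against 36524 and 38136, so leaving out control 3 gave a log2 fold change of -0.12 and leaving out control 2 gave 1.55. IGF2R, which clears insulin-like growth factor 2 and sorts lysosomal enzymes, had 22866 and 21684 against 23581 and 20062. SYNJ2, a phosphoinositide phosphatase, had 9822 and 22693 against 20415 and 20386. In these 3 unshifted genes the groups overlapped.

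The adhesion, cytoskeleton and matrix list had the lowest raised median of the 8 lists. Its 18 raised members had a median of -0.04, with 8 above 0, 2 (11.1%) above both controls and 4 below both controls. The shares were 57.4% above and 5.93% below among all raised members, and 17.7% above and 23.7% below among all genes. Its 17 unshifted members had a median of 0.06. ADGRF1 was the raised member called and ENPP1 the unshifted one. TUBB, a beta tubulin of dividing cells, had normalized counts of 138897 and 112319 in the controls and 109444 and 125596 in the cadmium libraries. DST, a linker of cytoskeletal filaments, had 28330 and 21858 against 34029 and 35009, with both cadmium libraries above both controls. ELOVL5, listed here although it elongates fatty acids, had 17741 and 11621 against 16660 and 17509. DSP, the desmosome linker, was at 15356 and 7797 against 10669 and 9980 and is named after its values were seen. NT5E, the CD73 enzyme that makes adenosine, had 35160 in control 2 and 57154, 57257 and 56054 in the others, which places control 2 alone below the rest. Ezrin (EZR), which ties actin to the membrane, had 23623 and 26590 against 26559 and 26645. Reads of TUBB that also matched a similar tubulin gene were dropped, so its counts are uncertain. The proteostasis list, the last of the 8, had medians of 0.32 over 22 raised and 0.03 over 20 unshifted members. Its HSP90AB1, a cytosolic chaperone, had 116656 and 81493 against 108036 and 116492, with overlapping groups. TRAM2, a protein of the translocation channel of the endoplasmic reticulum, had 23194 and 16312 against 25325 and 26371. Unshifted TCP1, a chaperonin subunit, had 18353 and 14954 against 13606 and 15356, PSMB1 of the proteasome had 11816 and 7200 against 9750 and 10548, and the sorting nexin SNX3 had 7328 and 6703 against 6300 and 6378. Of these 3, SNX3 had both cadmium libraries below both controls and the other two overlapped.

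**Figure D5:**
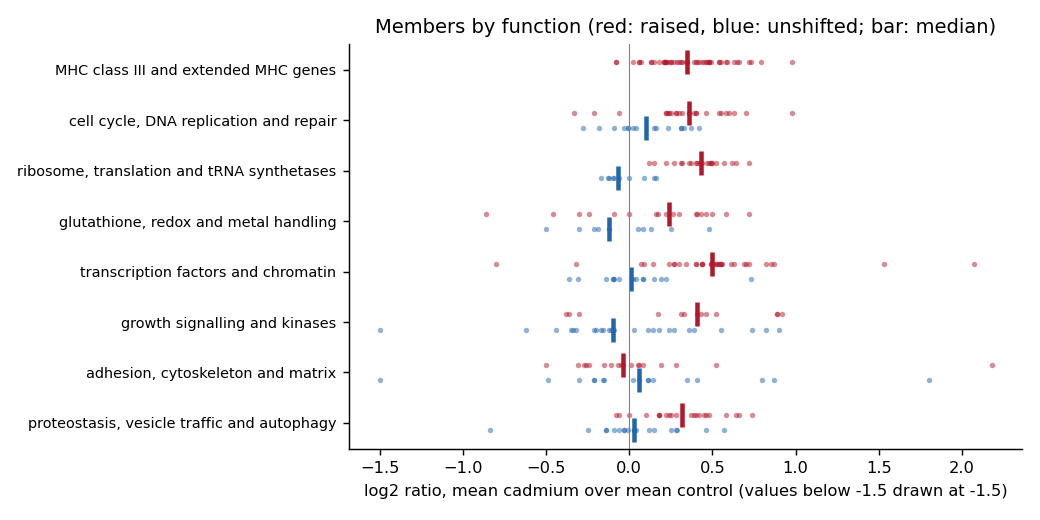
Centred log2 ratio of mean cadmium to mean control (x axis) of each member of 8 functional lists (y axis), raised in red and unshifted in blue, with bars at the median and values below -1.5 drawn at -1.5. Raised medians run from 0.24 to 0.50 in 7 lists and are -0.04 for adhesion, cytoskeleton and matrix genes; unshifted medians run from -0.12 to 0.10.

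Members that went furthest from their segment were named after their values were seen. SOX4, a developmental transcription factor, had normalized counts of 1548 and 3952 in the controls and 9009 and 6205 in the cadmium libraries. The groups did not overlap, and the DESeq2 log2 fold change of 1.47 (SE 0.46) missed the threshold (adjusted p = 0.118) and was 0.94 without control 2 and 2.29 without control 3. TFEB, the regulator of lysosome and autophagy genes, went against the raised segment with 475 and 648 against 226 and 391. BEND6, the lowest raised member, had 316 in control 2 and 72.3, 76.6 and 96.8 in the others, so its log2 fold change of -1.16 was 0.26 without control 2 and -1.88 without control 3.

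The widest unshifted values were of the same kind. THBS2, which encodes the matrix protein thrombospondin 2, had 1557 in control 2 but 2.13 in control 3, beside 41.8 and 60.2 in the cadmium libraries. Its log2 fold change of -3.93 was 4.58 without control 2 and -4.94 without control 3. PDE7B, a cAMP phosphodiesterase, had 2015 in control 2 and 190, 138 and 233 in the others, and its log2 fold change of -2.57 was -0.04 without control 2 and -3.45 without control 3. The antisense PDE7B-AS1 had 121 and 39.3 against 249 and 228, and its log2 fold change of 1.57 was 2.60 without control 2 and 0.97 without control 3. The pair overlaps on opposite strands that were not told apart in the counts. None of these passed the test.

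The segments also differed in what the split did not use. Raised members lay at 5.06 per Mb over 73.3 Mb, and unshifted members at 2.76 per Mb over 95.5 Mb. Median exon length was 4231 bases in the raised and 5918 bases in the unshifted segment, median GC content was 48.7% and 41.7%, and the median level was 451 and 243 normalized counts per kb of exon. To see whether the offset moved with these properties, members were divided at the tertiles of each property in turn. Raised medians were 0.28 to 0.44 in every stratum of GC content, exon length and level, unshifted medians were 0.00 to 0.10 and those of other chromosomes -0.07 to 0.05. Of the raised members, 327 were protein-coding with a median of 0.35, 23 were long noncoding RNAs with 0.51 and 20 were pseudogenes with 0.28. The unshifted segment had 245 protein-coding genes with a median of 0.04, 7 long noncoding RNAs with 0.50 and 10 pseudogenes with 0.16. Unshifted long noncoding RNAs thus had a median near that of the raised ones, over 7 genes. Of the genes left out by symbol, the 30 below the split had a median of 0.34.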

How the data were processed

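RNA-seq libraries of MDA-MB-231 cells were compared, 2 control and 2 cadmium. Per the study's methods, the labels and the file header, adaptor trimming by the authors was followed by HISAT2 alignment (hg38) and gene assignment with featureCounts 2.0.1 on an Ensembl annotation. The deposited values are raw counts per gene with no normalization. At the default settings in the header, strand was ignored, mates were counted singly, and reads that mapped to several places or overlapped several genes were dropped. Counting error is therefore larger than the counts give, and intervals or floors from counts would cover counting error only.

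Groups came from the sample labels. The control columns carry the numbers 2 and 3 and the labels 1 and 2, so they were assigned to the group only. Symbols were matched for 42045 of 61541 genes, and 61305 identifiers lay at the same place in GENCODE, which gave gene type and GC content. Total counts were 61916007, 51934729, 55092308 and 56602748, and size factors 1.06, 0.940, 1.00 and 1.01, in the order control 2, control 3, cadmium 1, cadmium 2.

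DESeq2 1.42.0 in R 4.3.3 was fitted on all genes (design: group, two-sided Wald test, Benjamini-Hochberg adjustment, threshold 0.1), and 19816 genes passed its filter at a mean normalized count of 7.69. Alternatives were edgeR 4.0.16 (quasi-likelihood, TMM), TMM factors, size factors without chromosome 6, other filters, thresholds, pseudocounts, count minimums and boundaries, and leaving out each library. Leaving out members whose controls differed more than 2-fold was added after seeing the data. An exact permutation test of 2 against 2 cannot go below p = 0.333 and was not used. Segment medians use log2 of normalized counts plus 1, centred over genes with a mean raw count of at least 100, in Python 3.11.15. Promoters were the 250 bases before the start in RefSeq (GRCh38.p14). The test scripts were tested on simulated data with known changes.

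Members and lists were chosen with earlier results of these data known. Named genes were the called members, the 5 members on each side of the split, 2 on each side of the count minimum per segment, the 3 with the most counts per kb, and the 3 most abundant of each list per segment. Ends of windows and the lowest and highest members of a segment or list are named too and, like any other gene, were chosen after their values were seen. Binding and accessibility assays were not analysed here, and 1 planned marker gene is not reported here.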

Additional observations from a re-analysis of the deposited data

How the results depend on the processing

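The segment medians were 0.36 (raised) and 0.05 (unshifted), 0.31 apart. Without centring, as DESeq2 log2 fold changes, they were 0.30 and -0.01. Leaving out each library in turn gave 0.34 to 0.37, 0.00 to 0.07 and a difference of 0.28 to 0.34. Under TMM factors, size factors without chromosome 6, pseudocounts of 0.5 and 5, count minimums of 30 and 300, protein-coding members alone, a split moved by 1 Mb either way, and without members whose controls differed more than 2-fold, each moved by less than the within-group SD between libraries (0.016, 0.022 and 0.030).

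Calls moved more. The 5 raised members called higher were 9 with at least 10 counts in 2 libraries, 9 at a count minimum of 30, 3 at 300 and 0 with edgeR, and 0 to 144 when a library was left out. Raised members called lower were 0 to 29, unshifted higher 0 to 39 and lower 0 to 40 when a library was left out, and edgeR gave 0 for both unshifted counts. Without control 2, 139 raised were called higher and 8 lower, and 33 and 12 unshifted. Without control 3 these were 144, 29, 39 and 40, and without either cadmium library all were 0. Over all genes the calls were 119 higher and 106 lower, 1150 and 1161 without control 2, 2678 and 3511 without control 3, 12 and 5 without cadmium 1, and 9 and 5 without cadmium 2. The numbers thus changed over all genes too and are no trait of either segment, and the cause of these changes was not tested. The 7 called members kept their direction with edgeR and when any library was left out. Their groups did not overlap and edgeR used the same counts, so this outcome was fixed in advance.

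Members near the minimum of 100 counts carry the widest counting error. No paired analysis was possible because numbers 2 and 3 of the control columns could not be matched to numbers 1 and 2 of the labels.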
